A study of Mus musculus with 4 samples.

Results

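The genes described here are 10 hormone receptors, hormone-activated factors and transcription factors that set the luminal lineage of the mammary gland: Esr1, Pgr, Prlr, Stat5a, Stat5b, Elf5, Gata3, Foxa1, Spdef and Ehf. Every probe set whose annotated symbol was exactly one of these names was taken. This gave 19 probe sets for 9 genes, among 18193 genes named on the array, and Prlr had no probe set under its symbol and was not analysed here. Of the 19 probe sets, 15 passed a filter on low signal and were tested, with at least 1 for each of the 9 genes. The 4 others are given by their values alone.

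The arrays compared mammary tumors of mice null for St6gal1, the enzyme that caps N-glycans with sialic acid in an alpha2-6 linkage, with tumors of wild-type littermates. All animals were female, of strain C57BL/6 and 110 days old, and all carried PyV-mT, the polyoma virus middle T oncogene, so the wild-type pools are oncogene-driven tumors too. Tumors were taken 14 days after onset, and the labels used here do not name the promoter that drives the transgene. Each of the 4 arrays held a pool of 3 tumors from 3 mice, with 2 null and 2 wild-type pools. The first set compared 1 null with 1 wild-type pool, and the second set compared another such pair. A pool hides the spread between its animals, so n = 2 pools per genotype below.

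Estrogen acts through the estrogen receptor Esr1, a nuclear receptor that binds DNA with its hormone and switches on, among others, the progesterone receptor gene Pgr. In mammary epithelium both receptors mark hormone-sensing luminal cells, and Foxa1 and Gata3 keep the chromatin of these cells open to the estrogen receptor. Prolactin acts through its receptor Prlr and the kinase Jak2 on Stat5a and Stat5b, which drive milk genes together with Elf5, an ETS factor of the alveolar, milk-secreting lineage. Spdef and Ehf are ETS factors of secretory and other epithelia.

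Median intensities of the 4 arrays ranged from 588 to 619. A sign of RNA quality is the ratio of the 3' to the 5' control signal. For Gapdh it was 0.873 (null) and 0.869 (wild type) in set 1 but 2.13 and 1.57 in set 2. For actin it moved less, from 1.53 and 1.63 in set 1 to 2.12 and 1.96 in set 2. St6gal1 itself, by its brighter probe set, read 2337 (null) and 2330 (wild type) in set 1 and 3642 and 2796 in set 2 (limma adjusted p = 0.554). It showed no loss in the pools labelled null. The sources used here do not say which part of the gene the allele lacks, and probes outside that part check nothing, so every direction below rests on the labels.

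Among the 9 genes, Pgr and Spdef were higher in the null tumors, and 1 of the 2 Elf5 probe sets was much lower. Esr1, Stat5a, Stat5b, Gata3, Foxa1 and Ehf had no probe set past the threshold. Counted by probe set, 2 of 15 rose, 1 fell and 12 did not pass. Across all 22519 probe sets tested, 4.05% were called higher and 3.25% lower, or 7.3% in either direction, with limma adjusted p under 0.05. The median log2 ratio of null over wild type was -0.13 over the 15 probe sets and -0.03 over all probe sets tested. With 15 probe sets, 3 calls are a small count to read against 7.3%. The 15 probe sets are not independent, because 5 genes have more than 1 of them. Without the intensity trend in the fit the adjusted p values of Pgr, Spdef and Elf5 were 0.225, 0.214 and 0.138, and without the set term 0.439, 0.687 and 0.168 (limma), so all 3 calls were lost in each of these fits. With 1 array left out and no set term, Pgr and Spdef did not pass in any of the 4 fits, and Elf5 passed only without null 1 (log2 -2.31, limma adjusted p = 0.0283). In bulk tumors, fewer cells of a type and less RNA per cell cannot be told apart.

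**Figure D1:**
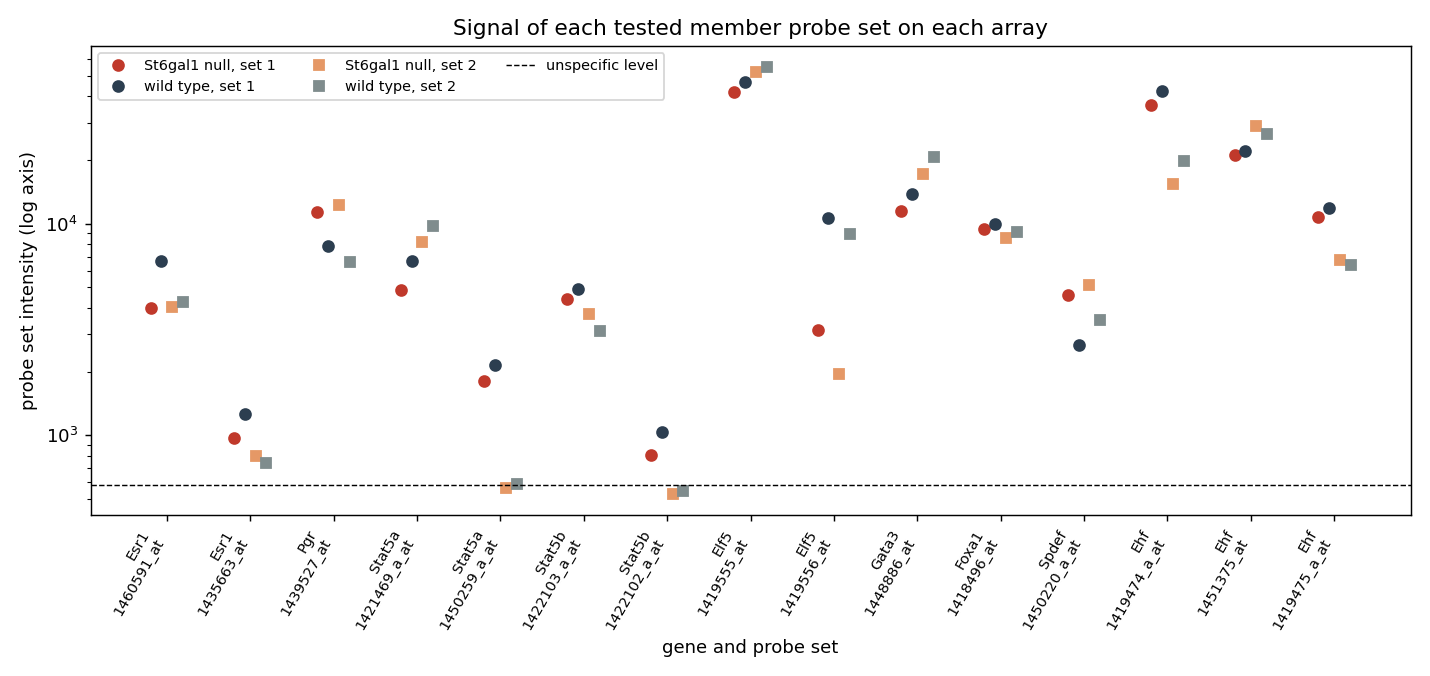
Probe set intensity (log axis) of the 15 tested probe sets on each of the 4 arrays, with circles for set 1, squares for set 2 and a dashed line at the unspecific level of 585. Both null arrays lie above both wild-type arrays for Pgr and Spdef and below them for Elf5 1419556_at and Esr1 1460591_at, and heights of different probe sets are not comparable.

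Pgr, the progesterone receptor gene, read 11372 (null) against 7864 (wild type) in set 1, and 12326 against 6566 in set 2. Both null pools lay above both wild-type pools. The rise was 1.44-fold in set 1 and 1.87-fold in set 2, and 1.64-fold over both (log2 0.72 ± 0.11, SE, n = 2 pools per genotype, limma adjusted p = 6.52e-04). All folds and log2 ratios here are on the log2(intensity + 44) scale, which understates the change of dim probe sets. The value comes from probe set 1439527_at alone. The other Pgr probe sets, 1421444_at and 1455772_at, read at most 313 and 117. That is within the unspecific level of 585, the highest signal of probe sets for Y-linked genes in these female animals, so they could neither bear out nor oppose the rise.

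Spdef, an ETS factor known from secretory and luminal epithelium, moved in the same direction. Its only probe set, 1450220_a_at, read 4616 (null) against 2676 (wild type) in set 1, and 5159 against 3505 in set 2. The null pools were again the higher pair without overlap, and the rise was 1.71-fold in set 1, 1.47-fold in set 2 and 1.58-fold over both (log2 0.66 ± 0.13, SE, n = 2 pools per genotype, limma adjusted p = 0.00523). Of the 15 tested probe sets 2 had both null arrays above both wild-type arrays, against 15.1% of all tested, and 2 had both below, against 16.9%. Both shares are near the background.

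Elf5, which drives alveolar differentiation downstream of prolactin, gave unlike answers from its 2 probe sets. Probe set 1419556_at read 3159 (null) against 10608 (wild type) in set 1, and 1940 against 8989 in set 2. All 4 signals lay above the unspecific level, and the null pools were lower without overlap. The signal was 3.89-fold lower over both sets (log2 -1.96 ± 0.13, SE, n = 2 pools per genotype, limma adjusted p = 3.41e-07), with log2 ratios of -1.73 in set 1 and -2.19 in set 2. Probe set 1419555_at read 41772 (null) against 46974 (wild type) in set 1, and 52161 against 54862 in set 2. There the genotypes overlapped, and the log2 ratio was -0.12 ± 0.08, with a 95% interval from -0.30 to 0.06. A fall of the size seen by the other probe set lies outside it. The interval is unadjusted and rests largely on the spread of other probe sets on the array. The annotation gives both probe sets the same target accession, and their places on the transcript were not analysed here.

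The difference between the Elf5 probe sets was tested within arrays, as 1419556_at minus 1419555_at. It was -3.71 in null 1 and -4.72 in null 2 on the log2 scale, against -2.14 and -2.60 in wild type 1 and 2, so the gap was wider in both null pools. The change of this difference with genotype was -1.84 ± 0.15 (SE, n = 2 pools per genotype), with an adjusted p of 7.04e-04 by limma over all pairs. Among 8254 such pairs of probe sets of 1 gene on the array, 0.327% were called, and the Elf5 pair ranked 10 by absolute size. Elf5 was named first for this test, and the members were chosen with earlier results of these data known. The p-value and the rank therefore describe this pair and are no independent support. The pair's call was lost with the low-signal filter at the 25th percentile (limma adjusted p = 0.0554), and also without the trend, without the set term and with any 1 array left out. The Gapdh 3'/5' ratios of the null and wild-type pools were 0.873 and 0.869 in set 1, where the log2 ratio of 1419556_at was -1.73, and 2.13 and 1.57 in set 2, where it was -2.19. The part of RNA quality in this difference was not tested.

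The stretches before the annotated starts of the genes that passed the threshold are shown, since these members had a probe set that was called between genotypes and since Elf5 has 2 annotated starts, 11970 bases apart. The sequences are from RefSeq (GRCm38.p6), 250 bases up to the base before the start, 5′ to 3′ on the gene's strand, and 9 of the 10 genes were found in that table. Capitals mark matches to 3 motifs searched on both strands: TTCNNNGAA, the palindrome that Stat factors bind, AGGTCA, the nuclear receptor half-site, and AGGAAG, an ETS core.
Pgr, chr9:8899583-8899832, plus strand: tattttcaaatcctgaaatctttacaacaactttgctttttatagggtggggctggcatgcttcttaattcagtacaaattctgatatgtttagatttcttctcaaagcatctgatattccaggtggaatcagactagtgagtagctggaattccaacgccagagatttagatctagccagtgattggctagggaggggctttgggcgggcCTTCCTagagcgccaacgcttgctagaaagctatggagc
Spdef, chr17:27728952-27729201, minus strand: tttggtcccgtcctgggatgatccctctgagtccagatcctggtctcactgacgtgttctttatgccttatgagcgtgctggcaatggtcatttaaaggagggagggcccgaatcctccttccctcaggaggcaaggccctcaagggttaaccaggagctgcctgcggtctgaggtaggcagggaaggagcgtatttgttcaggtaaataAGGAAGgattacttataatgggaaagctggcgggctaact
Elf5, first start, chr2:103411848-103412097, plus strand: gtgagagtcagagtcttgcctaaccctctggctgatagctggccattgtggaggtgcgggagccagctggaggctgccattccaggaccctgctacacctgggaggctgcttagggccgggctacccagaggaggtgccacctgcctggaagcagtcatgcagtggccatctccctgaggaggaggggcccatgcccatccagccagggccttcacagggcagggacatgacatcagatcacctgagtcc
Elf5, second start, chr2:103423818-103424067, plus strand: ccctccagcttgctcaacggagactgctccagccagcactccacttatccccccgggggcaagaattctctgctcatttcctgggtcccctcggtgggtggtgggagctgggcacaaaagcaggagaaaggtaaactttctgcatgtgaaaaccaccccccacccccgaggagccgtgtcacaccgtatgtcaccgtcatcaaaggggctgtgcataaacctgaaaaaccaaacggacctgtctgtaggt
The Pgr stretch held 1 AGGAAG match, on the opposite strand, and the Spdef stretch held 1 on the gene's strand. They begin 39 and 40 bases before the start. Of all 32851 such windows 29.5% held AGGAAG, 14% AGGTCA and 7.02% TTCNNNGAA. No match to these 3 motifs was found in either Elf5 stretch, and no printed matches overlapped one another. These are matches of letters and not measured binding.

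**Figure D2:**
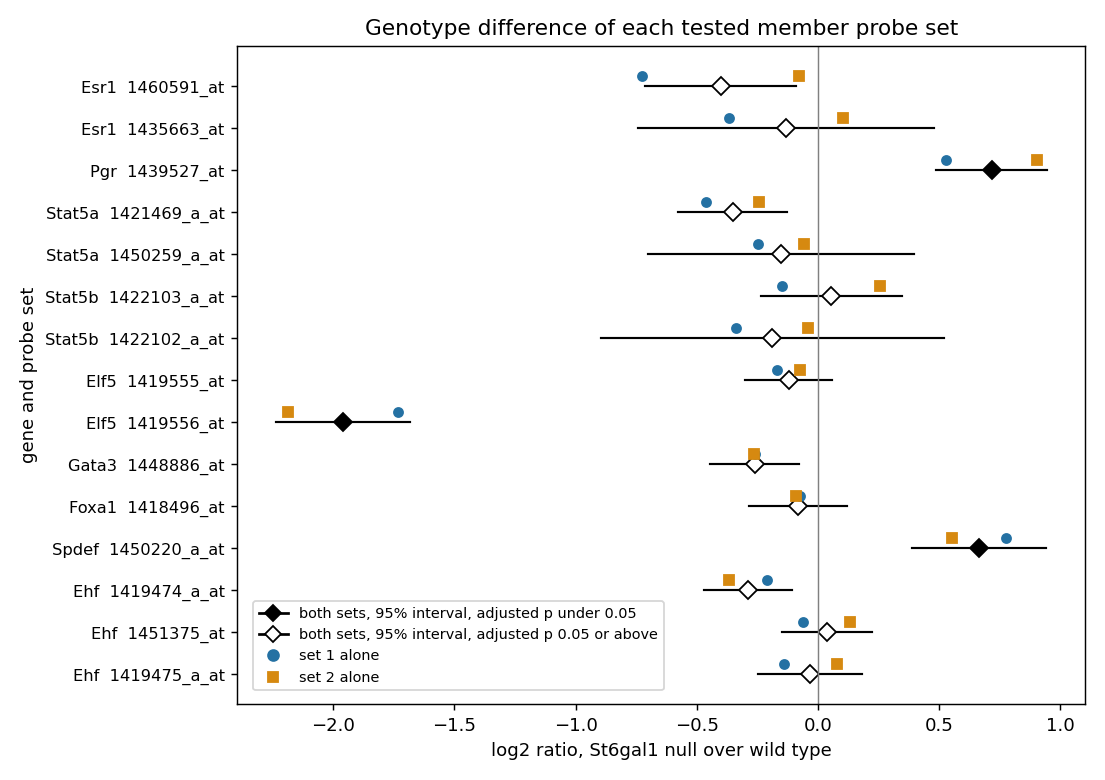
Log2 ratio of St6gal1 null over wild type for the 15 tested probe sets, with the estimate over both sets and its 95% interval (diamonds, filled where the limma adjusted p is under 0.05) and each set alone (circles for set 1, squares for set 2). Pgr and Spdef lie at 0.72 and 0.66, Elf5 1419556_at lies at -1.96, and the other 12 probe sets lie between -0.40 and 0.06.

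Esr1, the estrogen receptor gene, did not pass the threshold while Pgr, one of its known target genes, rose. Probe set 1460591_at read 4001 (null) against 6647 (wild type) in set 1, and 4043 against 4266 in set 2. The null pools were the lower pair, but the log2 ratio was -0.73 in set 1 and only -0.08 in set 2, and -0.40 ± 0.15 over both (limma adjusted p = 0.122). Its 95% interval, from -0.71 to -0.09, is not adjusted for the number of probe sets tested. Probe set 1435663_at read 970 and 1264 in set 1 and 798 and 739 in set 2 (null, then wild type), with opposite directions in the sets and a log2 ratio of -0.13 ± 0.28. The third Esr1 probe set, 1421244_at, was below the filter, and 612 in null 2 was its only signal above the unspecific level.

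Stat5a and Stat5b, the paired effectors of prolactin signalling, did not pass either. Stat5a 1421469_a_at read 4856 (null) against 6695 (wild type) in set 1, and 8215 against 9733 in set 2. It was lower in the null pool of each set, by log2 -0.46 and -0.24, with -0.35 ± 0.10 over both and an adjusted p of 0.058 by limma, just short of the threshold. The second Stat5a probe set, 1450259_a_at, had a log2 ratio of -0.15 ± 0.26, and its signals of 562 and 586 in set 2 were near the unspecific level. Stat5b 1422103_a_at read 4413 and 4894 in set 1 and 3746 and 3126 in set 2 (null, then wild type), so the sets went opposite ways around 0.06 ± 0.14. Stat5b 1422102_a_at lay within the unspecific level in both pools of set 2 and had a log2 ratio of -0.19 ± 0.33. Stat5a and Stat5b are closely related neighbouring genes, with 0 protein-coding genes between them in the RefSeq table (GRCm38.p6), and cross-detection between them was not tested.

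Gata3 and Foxa1, the factors that hold luminal identity and estrogen receptor access, did not pass for genotype. Gata3 read 11500 (null) against 13786 (wild type) in set 1, and 17145 against 20569 in set 2. Its log2 ratio was -0.26 in both sets and -0.26 ± 0.09 over both (limma adjusted p = 0.0869), so the 2 sets went the same way without passing. Foxa1 read 9493 and 9995 in set 1 and 8585 and 9139 in set 2 (null, then wild type), and its log2 ratio of -0.08 ± 0.09 had a 95% interval from -0.28 to 0.12. A change as large as that of Pgr or Spdef in either direction lies outside this interval. The interval is not adjusted for the number of probe sets tested and rests largely on the spread of other probe sets.

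Ehf, an epithelial ETS factor whose gene is the protein-coding neighbour of Elf5 on chromosome 2, had no probe set past the threshold. Probe set 1419474_a_at read 36556 (null) against 42269 (wild type) in set 1, and 15384 against 19853 in set 2. It was lower in the null pool of each set (log2 -0.29 ± 0.09, limma adjusted p = 0.0566), and passed after quantile normalization (log2 -0.33, adjusted p = 0.0207). Probe set 1451375_at read 21088 and 21980 in set 1 and 29000 and 26454 in set 2 (null, then wild type), and 1419475_a_at read 10783 and 11890, then 6725 and 6373. Their log2 ratios were 0.04 ± 0.09 and -0.03 ± 0.10. The fourth probe set, 1447760_x_at, read at most 328 and was within the unspecific level. The genotype differences between the Ehf probe sets did not pass (limma adjusted p = 0.473 and 0.644 over all pairs).

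**Figure D3:**
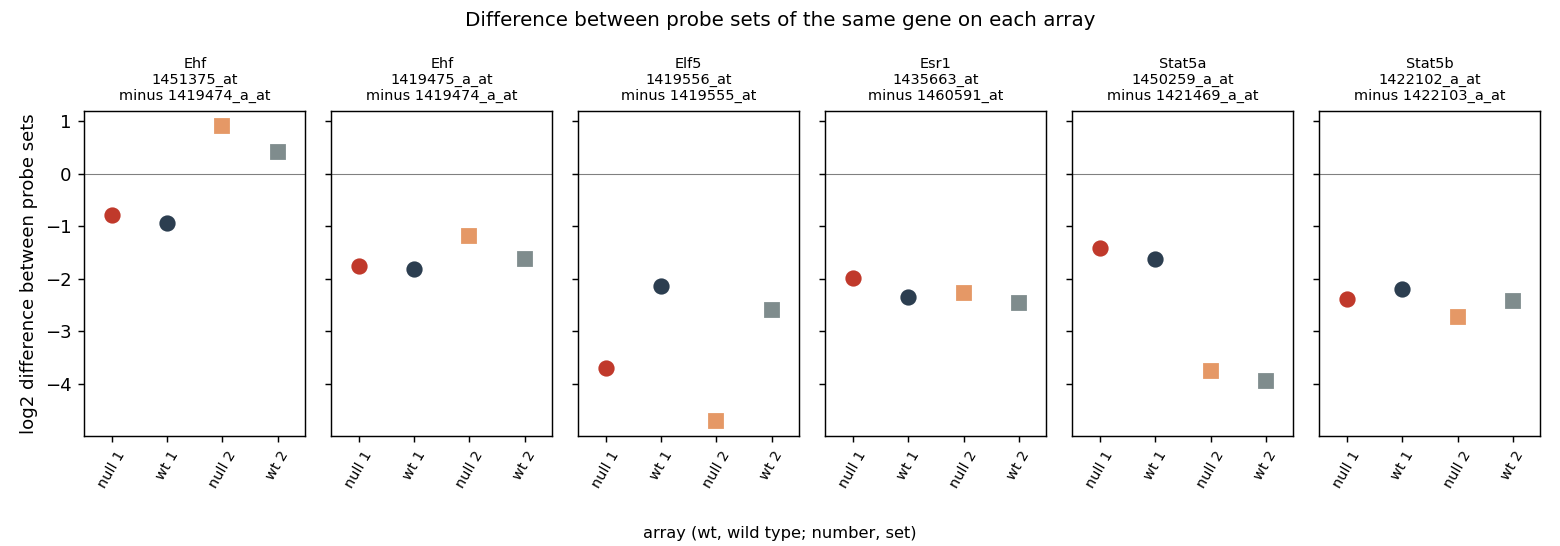
Within-array log2 difference between probe sets of the same gene for the 6 tested pairs, on the null and wild-type (wt) arrays of set 1 (circles) and set 2 (squares). The Elf5 difference is wider in both null pools and, within each genotype, wider in set 2. The Stat5a difference and that of Ehf 1451375_at separate set 1 from set 2.

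Several of these probe sets passed for the set. Between the second and the first set, 9 of the 15 passed the limma threshold, 4 higher and 5 lower in set 2, against 23.6% of all probe sets tested. Without the genotype term 3 passed, and without the intensity trend 0 passed (limma, 7 at an unadjusted p under 0.05). Gata3 rose 1.49-fold from set 1 to set 2 and Elf5 1419555_at 1.21-fold. Elf5 1419556_at, the probe set called for genotype, was lower in set 2 (log2 -0.46, limma adjusted p = 0.0182). Pgr, Spdef and Foxa1 were not called, with log2 values of -0.07 ± 0.11, 0.27 ± 0.13 and -0.14 ± 0.09. Probe sets of 1 gene went opposite ways: Stat5a 1421469_a_at rose by log2 0.64 while 1450259_a_at fell by 1.70, and Ehf 1451375_at rose by 0.36 while 1419474_a_at fell by 1.17. Tested as differences within arrays, a test added after these values were seen, 3 of the 6 pairs passed, against 22.2% of all pairs: Stat5a by -2.35 ± 0.25, Ehf 1451375_at by 1.53 ± 0.12 and Elf5 by -0.74 ± 0.15. The Gapdh 3'/5' ratio moved with the set, from 0.873 and 0.869 to 2.13 and 1.57, and its part in these set differences was not tested.

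Known targets of the hormone receptors passed in both directions. Of 8 estrogen and progesterone target genes tested, 2 rose, 1 fell and 5 did not pass, with a median log2 ratio of 0.04, beside -0.01 over all 11514 genes tested, of which 5.18% rose and 3.59% fell. Each gene is given by its brightest tested probe set. Ccnd1, encoding cyclin D1, rose 1.46-fold, and 1 of its 2 other probe sets passed as well. Igfbp4, encoding a binding protein for insulin-like growth factors, rose 1.30-fold, and of its 5 other tested probe sets 1 passed and 1 had a log2 ratio of -0.73. Cited1, a coactivator of the estrogen receptor in mammary epithelium, read 4146 (null) against 8779 (wild type) in set 1, and 2736 against 6284 in set 2, and fell by 1.13 on the log2 scale (limma adjusted p = 1.96e-05). Of 11 coregulators of the estrogen receptor 0 passed, with a median of -0.10.

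Milk genes downstream of prolactin, Stat5 and Elf5 also passed in both directions. Of 9 milk genes tested, 2 rose and 3 fell, with a median of -0.22. Wap, whey acidic protein, fell by 1.10 on the log2 scale, from 6838 to 2556 in set 1 and from 4433 to 2518 in set 2 (wild type to null), and Btn1a1, butyrophilin of the milk fat globule, fell by 0.61. Lalba, the alpha-lactalbumin gene, rose 1.36-fold and Lpl, lipoprotein lipase, rose 2.48-fold. Lpl is also known as a gene of adipocytes, whose markers rose in the same pools. The part of adipocyte content in the Lpl value was not tested. Csn3, the kappa-casein gene, had a log2 ratio of 0.01 ± 0.12. Of 11 prolactin signalling genes only Stat3 passed, falling by 0.49, and its 3 other tested probe sets, from -0.28 to -0.13, did not pass. Jak2 and the feedback inhibitors Cish, Socs2 and Socs3 did not pass, with log2 ratios of -0.04, -0.01, 0.17 and 0.07.

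Of the 4 lists of related factors, 3 held genes that fell and 0 held genes that rose, beside 3.59% of all genes tested that fell and 5.18% that rose. Of 15 ETS factors other than Elf5, Spdef and Ehf, 0 passed and the median was 0.01. Elf3, the ETS factor of epithelia listed beside them, had a log2 ratio of 0.42 ± 0.14 (limma adjusted p = 0.0992). Of 12 other hormone and nuclear receptors 0 rose and 3 fell: Oxtr, the oxytocin receptor of myoepithelium, by 0.85, Rxra, the retinoid X receptor alpha, by 0.37 and Vdr, the vitamin D receptor, by 0.35. Oxtr is also counted among the basal and myoepithelial markers below. A further Rxra probe set had a log2 ratio of 0.08. Of 7 GATA and forkhead relatives 3 fell, Foxo3, Foxo1 and Foxc1, by 0.42, 0.41 and 0.37. Of 15 other luminal lineage regulators 4 fell, Tfap2a, Grhl2, Runx1 and Grhl1, by 0.48, 0.44, 0.36 and 0.34. A second Grhl2 probe set had a log2 ratio of 0.07 and did not pass. A further Runx1 probe set also passed, with a log2 ratio of -0.72 (limma adjusted p = 0.00996). The remaining Runx1 probe sets ranged from -0.57 to 0.06 and did not pass. After quantile normalization or cyclic loess these 3 lists gave 1, 2 and 2 calls, all lower.

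**Figure D4:**
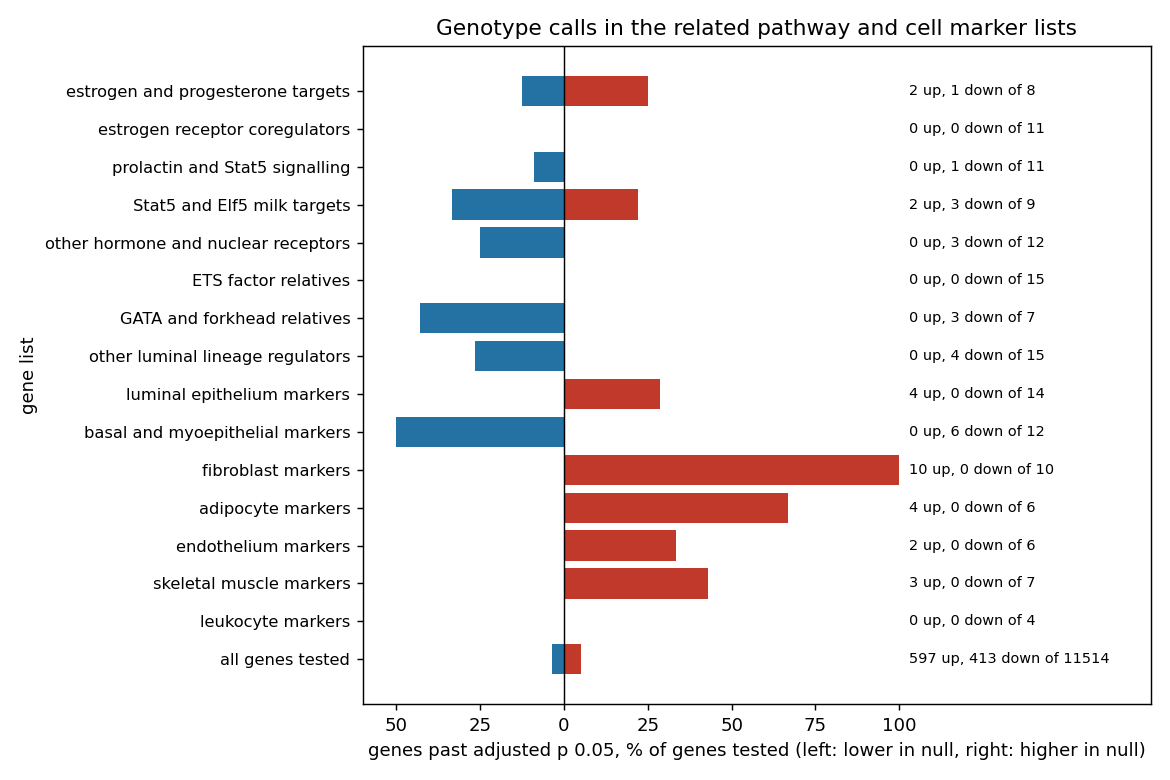
Share of the genes of each list that passed limma adjusted p under 0.05, to the right for genes higher and to the left for genes lower in the null pools, with the counts beside the bars. All 10 fibroblast markers were higher and 6 of 12 basal markers were lower, against 597 genes higher and 413 lower of 11514.

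Markers of other cell types moved with the genotype. The summed signal of 10 fibroblast markers was 358858 and 413271 in the null pools and 165722 and 173138 in the wild-type pools, and all 10 rose, led by Lum at 4.31-fold. For 7 adipocyte markers the sums were 63040 and 55228 in the null and 26366 and 23178 in the wild-type pools, 4 of 6 tested rose, and Lep lay within the unspecific level on all arrays. For 13 basal and myoepithelial markers the sums were 179628 and 185722 in the null and 219104 and 218839 in the wild-type pools, and 6 of 12 tested fell, led by Mylk at log2 -0.88. Their part in the values of Pgr, Spdef and Elf5 was not tested.

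Luminal epithelium was present in every pool. The sum of 14 luminal markers was 656073 and 694540 in the null pools and 608179 and 584609 in the wild-type pools, and 4 of 14 rose. Prom1, a surface protein of hormone-sensing luminal cells, rose 2.28-fold, Cldn4 of the tight junctions 1.44-fold and the luminal keratin gene Krt19 1.29-fold. Epcam and Cdh1, of epithelial adhesion, had log2 ratios of -0.18 and -0.08 and did not pass. Muc1, Cldn3, Kit and Aldh1a3 were also below 0, at -0.24, -0.14, -0.21 and -0.29, and did not pass. All other luminal markers tested had log2 ratios above 0, so the list was split. The median log2 ratio over the luminal markers was 0.20, and the part of luminal content in the values of Pgr and Spdef was not tested. Endothelium markers rose in 2 of 6 tested, with sums of 10949 and 11031 in the null and 6821 and 7262 in the wild-type pools. Skeletal muscle markers rose in 3 of 7, with sums of 12225 and 10806 against 7043 and 7092. Of those that rose, Ckm read within the unspecific level in both wild-type pools (220 and 478) and Tnni2 in wild type 2 (236). Tnnc2 read above it on all arrays. A second tested Tnni2 probe set had a log2 ratio of -0.01 and did not pass. Of 4 leukocyte markers tested 0 passed, with sums over 8 genes of 49455 and 57619 in the null and 45864 and 51776 in the wild-type pools, and Itgam, Cd3g and Cd79a lay within the unspecific level on all arrays.

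The genes whose signals ran most like the called members over the 4 arrays were found by the distance between log2 values after subtracting each probe set's mean. For Pgr they were Reg3b, Pilrb1 and Lyve1, at distances of 0.02, 0.07 and 0.08. For Spdef they were Cd209a, Wdfy4 and Cpd, at 0.01, 0.04 and 0.05. For Elf5 1419556_at they were Htr4, BC023105 and S100a8, at 0.27, 0.37 and 0.38. These were the closest of 19767 candidate probe sets for Pgr and Spdef and of 19766 for Elf5. Some of these genes read within the unspecific level of 585 on both arrays of 1 genotype. Cd209a did so in wild type, at 401 and 541. Htr4 (456 and 345) and BC023105 (368 and 247) did so in null. Pilrb1 read 581 in wild type 2. With 4 arrays the distances are a description only.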

How the data were processed

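Total RNA of pooled mammary tumors was measured on 4 one-colour Affymetrix Mouse Genome 430 2.0 arrays. The deposited values are linear probe set intensities made with MAS5, per the submitters' processing notes, with no version named there. All 4 columns had a mean of 2500 after 2% was trimmed at each end, so they were not scaled further. Of 45101 probe sets 64 controls were left out. The probe annotation gave 1 symbol for 34945, several for 932 and none for 9160, and only the first kind was named.

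Values were used as log2(intensity + 44), 44 being the 10th percentile. The 22519 probe sets whose mean reached the median of means, 591, were fitted with limma 3.58.1 in R 4.3.3 (lmFit, eBayes with trend), with set and genotype as terms. P-values were adjusted by Benjamini-Hochberg over every probe set in the fit, at 0.05. The design text pairs 1 null with 1 wild-type pool per set, which makes the set the block, and deviations within sets correlated at 0.605. With 1 residual and 13.0 prior degrees of freedom, the errors rest largely on other probe sets. Enumerating 2 against 2 arrays could reach an exact two-sided p of only 0.333, and the number of arrays limits the precision. Differences between probe sets of a gene (each minus the brightest) were fitted alike over 8254 pairs. The unspecific level, 585, came from 16 Y-linked probe sets. The fits were tested on simulated data with independent normal noise. That noise was drawn to suit the model, so these runs cannot show whether the trend and the set term suit the real arrays.

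The members and lists were chosen with earlier results of these data known. The naming rule took all members, up to 4 called genes per pathway list and up to 3 per marker list by size of change. Genes named without a call, or as lying within the unspecific level, were chosen after their values were seen. Pools are separate animals, and the p-values rest on a spread between pools that is drawn largely from other probe sets. The alternatives changed the normalization (quantile, cyclic loess), the filter, the pseudocount, the trend, the set term or the genotype term, or left out 1 array.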

Additional observations from a re-analysis of the deposited data

How the results depend on the processing

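For Pgr, Spdef and Elf5 1419556_at, most of the 13 fits could not have turned the direction. The filter, the trend and the set term leave the estimate itself unchanged. Both null arrays lay beyond both wild-type arrays, so leaving out 1 array could not turn it either. The rise of Pgr and Spdef and the fall of this Elf5 probe set kept their direction in all 13 fits. Pgr and Spdef passed in 7 of them and Elf5 in 8. Without the set as a replicate block limma called 0 probe sets on the whole array (1280 at an unadjusted p under 0.05), 0 of the 15 (3 unadjusted) and 0 pairs. Without the trend it called 0 (3486 unadjusted), 0 of the 15 (3 unadjusted) and 0 pairs, and 0 of the 15 for the set effect (7 unadjusted). With 1 array left out and no block, it called from 4 to 27 probe sets, from 0 to 1 of the 15 and 0 pairs, against 1645, 3 and 27. A lone array was then assumed to vary like the other group. Pairs called fell to 7 without a filter, 1 with the filter at the 25th percentile and 17 with the larger pseudocount. Without the genotype term 3 of the 15 passed for the set effect, against 9. Averaged over its 2 probe sets, the Elf5 log2 ratio was -1.04 against -0.12 for the brighter. That for Ehf was -0.09 over 3 probe sets against -0.29. The cause of these changes was not tested.

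With 1 array left out the set term was dropped too, so the log2 ratios also take in differences between the sets. Gata3, for example, was at -0.26 in each set and differed by log2 0.58 between them. The ratios of 10 of the 12 probe sets that had not passed turned sign in at least 1 fit. Those of Esr1 1460591_at (from -0.72 to -0.08) and Foxa1 (from -0.15 to -0.0097) did not. The others ran from -0.50 to 0.24 for Esr1 1435663_at, from -0.73 to 0.025 for Stat5a 1421469_a_at and from -1.05 to 0.75 for 1450259_a_at. For Stat5b they ran from -0.26 to 0.37 (1422103_a_at) and from -0.63 to 0.25 (1422102_a_at), for Elf5 1419555_at from -0.28 to 0.039 and for Gata3 from -0.55 to 0.027. For Ehf they ran from -0.91 to 0.34 (1419474_a_at), from -0.19 to 0.27 (1451375_at) and from -0.48 to 0.42 (1419475_a_at). Genotype differences between probe sets ran from -0.53 to 1.18 and from -0.028 to 0.54 for the Ehf pairs and from -0.98 to 1.38 for Stat5a. How much of these ranges came from the sets was not tested.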
